A study of Rattus norvegicus with 6 samples.

Results

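Of the 26903 genes or names with a probe on the array, 214 (0.795%) were olfactory receptor genes numbered from Olr1 to Olr300 in the rat nomenclature. Probes were named through their RefSeq accession, and a gene was taken when its symbol, or an older symbol listed for it, was Olr followed by a number from 1 to 300. Present names mostly begin with Or, and 208 of the 214 were found by an older symbol, while 6 still carried an Olr symbol. The rule matched 215 genes. The gene left out, whose present symbol is Olr1, is the oxidised low density lipoprotein receptor of endothelial cells and not an olfactory receptor, and it was well above background on none of the 6 arrays. Of the 214 genes, 121 belonged to class I families, 88 to class II families and 5 had no family in their name. Where a gene had more than 1 probe, as was the case for 9 genes, the probe with the highest mean signal was used. At the limit of the rule, Or12j4 (Olr300) and Or13a27b (Olr302, the next number with a probe) were both well above background on no array.

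Olfactory receptor genes encode the G protein-coupled receptors with which sensory neurons of the nasal epithelium detect odorants. Each mature sensory neuron is known to transcribe a single receptor gene, and the receptor signals through the G protein subunit Gnal, the adenylyl cyclase Adcy3 and a cyclic nucleotide-gated channel. The family is divided into class I, first described in fish, and class II, which is found in land vertebrates. Most of these genes are held silent in most other tissues, although a few are known outside the nose, so that the family can serve as a baseline of genes thought to be unexpressed.

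The samples were ovaries of female Wistar rats collected on postnatal day (PND) 7. In the treated pups, lipopolysaccharide (LPS), a component of the bacterial outer membrane, here from Salmonella enterica, was given into the peritoneum at 0.05 mg/kg, first at PND 3 and again at PND 5. Control pups received saline in the same volume and at the same ages. Each treatment was measured on 3 single-colour arrays, referred to by treatment and replicate number. According to the methods, the tissue came from more animals than there were arrays and from a pair of litters for each treatment, so that the p-values measure the spread between these arrays, which may share litters.

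Marker genes were read before the receptors to check the tissue. All 8 oocyte markers with a probe passed the detection flag of the scanner software on every array. Their summed signal, in multiples of the 75th percentile of the array, was 16.8, 47.0 and 38.3 for LPS 1, 2 and 3 and 22.8, 20.02 and 33.7 for saline 1, 2 and 3, with Zp3 the most abundant. All 7 granulosa cell markers were likewise detected, with sums of 24.0, 90.8 and 63.1 with LPS and 43.4, 43.1 and 71.3 with saline, and Inha was the most abundant. Both lists had their lowest sum on LPS 1, and the treatments overlapped in both.

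Saline 2 and saline 3 stood apart from the other arrays in adrenal transcripts. The 7 adrenal medulla markers, led by Pnmt, summed to 80.1 on saline 2 and 52.4 on saline 3, against 5.10 on saline 1 and 4.85, 3.14 and 2.53 on the LPS arrays. The 6 adrenal cortex markers, led by Cyp21a1, summed to 136 and 192 on saline 2 and 3, against 1.34 on saline 1 and 1.66, 1.00 and 0.799 on the LPS arrays. None of these 13 markers was below the detection flag on all arrays. Main counts are therefore also given without saline 2 and 3, and the part of the adrenal transcripts in the receptor results was not tested.

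Markers of the olfactory neuron were detected in part. Of 7 such markers, 4 were well above background on no array, namely the olfactory marker protein Omp, the channel subunits Cnga2 and Cnga4 and the receptor export chaperone Rtp1. The other 3 were detected, Gng13 and the export chaperone Rtp2 on all 6 arrays and Stoml3 on 5. The list summed to 1.55, 1.89 and 1.55 with LPS and 2.46, 1.15 and 1.43 with saline. Most of each sum came from its most abundant gene, Gng13, a G protein subunit also found in taste cells. In a whole tissue, fewer cells of a type and less RNA per cell cannot be told apart.

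Detection of the receptor genes was read from the flag with which the scanner software marks a spot as well above its background. On LPS 1, 2 and 3 the number of receptor genes well above background was 55, 29 and 31, and on saline 1, 2 and 3 it was 30, 22 and 24. LPS 1 stood apart with 25.7% of the genes, while the other 5 arrays lay between 10.3% and 14.5%. The treatments overlapped, since LPS 2 had 1 gene fewer than saline 1, and a two-sided exact permutation test over the arrays gave p = 0.2, where the smallest value 3 against 3 arrays can give is 0.1. Paired by replicate number, the LPS array had more detected genes in all 3 pairs, and the exact paired test, added after seeing the data, gave p = 0.25, the smallest value 3 pairs can give. Over all 30367 probes the numbers well above background were 22083, 20800 and 21279 with LPS and 20325, 18604 and 19877 with saline, which did not overlap (exact p = 0.1). LPS 1 had the highest count of all probes too. There 72.7% of the probes were detected, beside 68.5% and 70.1% on LPS 2 and 3.

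**Figure D1:**
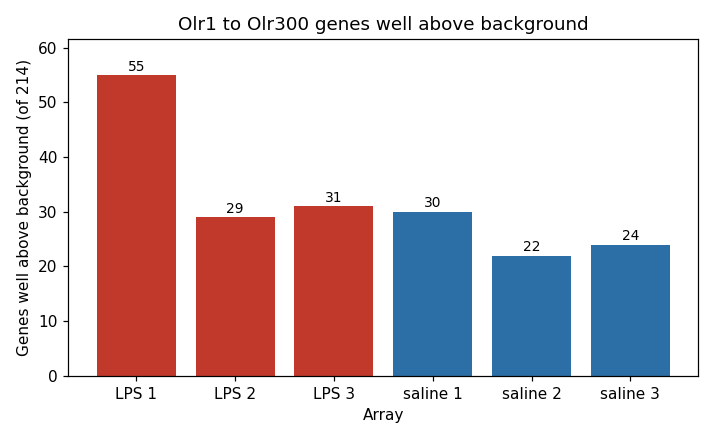
Number of the 214 receptor genes well above background (vertical axis, genes) on each array (horizontal axis), with LPS arrays in red and saline arrays in blue. LPS 1 has 55 genes and the other arrays 22 to 31.

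The position of the arrays on the slide differed between treatments. All 6 arrays lay on 1 slide read in 1 scan, with the 3 saline arrays and LPS 1 in the same row and LPS 2 and 3 in the other. Within the row that held both treatments, the 55 genes of LPS 1 stood against 30, 22 and 24 on the saline arrays. The row without saline arrays had 29 and 31. LPS 1 and LPS 3 lay above the highest saline count, LPS 3 by 1 gene, and a difference between rows cannot be told apart from a difference between these LPS arrays.

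Over all arrays together, 154 of the 214 receptor genes (72.0%) were well above background on none by the probe used. Another 25 were well above background on a single array, 17 on 2 to 5 arrays and 18 (8.41%) on all 6. Among all 30367 probes the corresponding shares were 24.9% on no array and 59.6% on all arrays. Without saline 2 and 3, 58 genes were detected on at least 1 array and 25 on all 4 arrays left. By any probe of a gene, 61 in place of 60 were detected, since a further probe of Or51b17 (Olr131), named after its values were seen, passed the flag on saline 1. The receptor genes were thus mostly undetected but not uniformly so, since 60 were flagged at least on 1 array, and they are referred to by family and not as silent genes.

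Most single-array detections came from LPS 1. Of the 25 genes detected on just 1 array, 22 were detected on LPS 1, 1 on LPS 3 and 2 on saline 2. Without LPS 1, the number detected on at least 1 array was 38 in place of 60. Of the 58 genes detected on any LPS array, 32 were also detected on a saline array, and 34 genes were detected on any saline array. The 26 detected on LPS arrays and on no saline array (12.1%, beside 5.75% of all probes) included 23 that were detected on LPS 1, and why that array stood apart was not tested. Against saline 1 alone, 28 genes were detected with LPS only, a count that leaving out saline arrays cannot lower. It has no share of all probes beside it, so no excess is read from it.

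Detection was spread over both classes and most families. Of the class I genes, 37 of 121 passed the flag on some array and 9 on all 6, and of the class II genes 23 of 88 and 9. The largest family, Or52, had 21 of 68 genes detected on at least 1 array, and Or51 had 10 of 43. In Or56 and Or10 the counts were 5 of 8 each, in Or6 6 of 14, in Or2 5 of 18 and in Or5 5 of 27. The small families Or13, Or12 and Or55, with 6, 4 and 2 genes, had 1 detected gene each. None of the 11 Or14 genes and none of the 5 genes without a family name was detected on any array. No difference between families was tested.

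The median level of the receptor genes, detected or not, was close to that of the negative control spots. The processed signal, from which the software has subtracted the background, had a median over the 214 genes of 28.4, 33.2 and 31.3 intensity units for LPS 1, 2 and 3 and 26.8, 60.5 and 32.5 for saline 1, 2 and 3. Those spots, which match no rat transcript, had medians of 26.4, 32.4 and 30.5 with LPS and 22.7, 58.4 and 31.4 with saline. For comparison, the 75th percentile of all non-control spots was 3956, 5025 and 6754 with LPS and 2824, 5801 and 3941 with saline. The genes' median followed the control spots from array to array, and the high value of saline 2 appeared in both.

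Many of these values were set by the software. Where a spot is too dim, the software writes a surrogate value in place of the subtracted signal. It had done so for 127, 148 and 153 of the 214 genes with LPS and for 150, 165 and 155 with saline, and 126 genes held a surrogate on all 6 arrays. Among the negative control spots the share with a surrogate was 95.4% to 99.0%. Before background subtraction, the mean signal of the median gene was 548, 796 and 942 with LPS and 541, 918 and 546 with saline, beside 527, 845 and 1032 and 572, 1003 and 568 for the negative controls. The median gene thus lay above the control spots on LPS 1 alone in this unsubtracted signal.

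The scaled levels put the treatments apart. The log2 processed signal of the median gene was 4.83, 5.05 and 4.97 with LPS and 4.72, 5.91 and 5.02 with saline, and the treatments overlapped (exact p = 0.8). After subtraction of each array's log2 75th percentile over probes, which was 11.73, 12.01 and 12.42 with LPS and 11.22, 12.17 and 11.64 with saline, the median became −6.90, −6.96 and −7.46 for LPS and −6.49, −6.26 and −6.63 for saline. All 3 LPS values lay below all 3 saline values, with means of −7.10 ± 0.31 and −6.46 ± 0.19 (SD, n = 3 arrays each), at the smallest exact p of 0.1. The negative control spots, scaled in the same way, gave −7.00, −6.99 and −7.49 for LPS and −6.71, −6.30 and −6.67 for saline, which did not overlap either. The difference between the median gene and the control spots was 0.11, 0.03 and 0.03 with LPS and 0.22, 0.04 and 0.04 with saline, and here the treatments overlapped (exact p = 0.5), while LPS was lower in all 3 pairs of arrays with the same number (exact paired p = 0.25).

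The 154 genes detected on no array lay mostly in a narrow band on each array. Their scaled median was −6.97, −7.01 and −7.50 with LPS and −6.55, −6.29 and −6.67 with saline. Their interquartile range was 0.33, 0.16 and 0.13 with LPS and 0.30, 0.16 and 0.14 with saline. A tail lay above the band, and the highest value of an array ranged from −5.51 on LPS 3 to −4.74 on LPS 1. The band was wider on the replicates numbered 1 of both treatments than on the other 4 arrays. The bands of LPS 3 and saline 2 lay further apart than any band was wide.

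**Figure D2:**
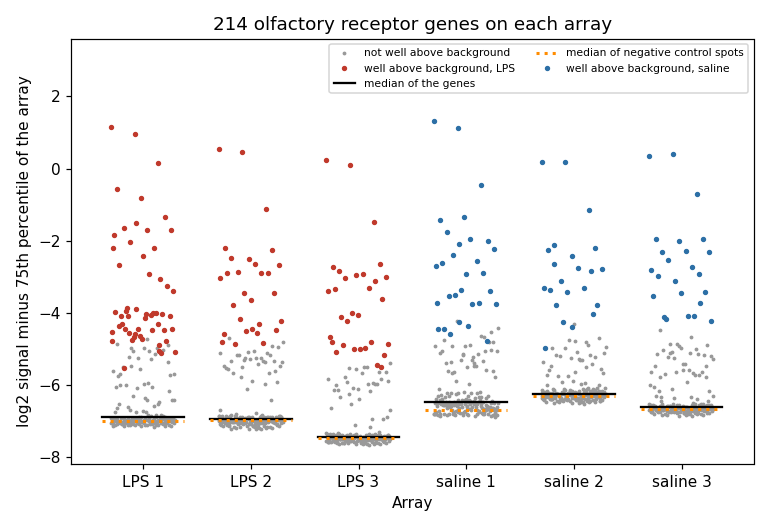
Scaled log2 signal (vertical axis, log2 signal minus the 75th percentile of the array) of the 214 receptor genes on each array (horizontal axis), grey where not well above background and coloured where well above it. The median of the genes (black line) lies near the median of the negative control spots (dotted orange line) on every array, from −7.46 on LPS 3 to −6.26 on saline 2.

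The fit of LPS against saline over all 30367 probes gave no receptor gene an adjusted p under 0.05 in limma with Benjamini-Hochberg adjustment, where 0% of all probes passed. An ordinary analysis of variance, the design the methods name, gave none either, with 76 genes at an unadjusted p under 0.05, beside 13.0% of all probes. In limma the lowest adjusted p among the 214 was 0.271. At least 2-fold differences at an unadjusted p under 0.05 were found for 0 receptor genes in the direction of LPS, beside 0.613% of all probes, and for 2 (0.935%) in the direction of saline, beside 1.08%. These shares were near those of all probes. Without a limit on the fold, 100 of the 214 genes (46.7%) had an unadjusted p under 0.05, beside 16.5% of all probes. That count was not stable. It was 148 (beside 32.1% of all probes) without both replicates numbered 1, 126 (beside 22.6%) without LPS 1, 115 (beside 20.8%) with the replicate number as a block and 111 (beside 23.7%) without saline 1. In the other direction it was 30 (beside 5.28% of all probes) without saline 2, 36 (beside 6.34%) without LPS 3 and 15 (beside 5.80%) without saline 2 and 3. It was 12 (beside 29.2%) with arrays centred on negative control spots, 3 (beside 6.07%) without normalization, 3 (beside 4.91%) with quantile normalization and 0 (beside 4.63%) with no background correction.

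The values of LPS lay below those of saline without overlap for 112 receptor genes (52.3%), beside 18.4% of all probes, and above them for 1 gene (0.467%), beside 5.02%. Of the 112, 111 were well above background on no array, and the remaining gene was Or51k7, detected on saline 2 alone. Among the 154 undetected genes the share with LPS lower was 72.1%, and among the 7568 probes detected on no array it was 58.0%. None of the 18 genes detected on all 6 arrays was without overlap in either direction. Of the 18093 probes detected on all arrays, 1040 lay lower and 1030 higher without overlap, so that most of them overlapped too. The receptor genes lower without overlap were thus almost all undetected, and no fold change is given for them.

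The median log2 difference over the 214 genes, LPS minus saline, was −0.56 beside −0.04 over all probes. The difference was negative for 178 genes (83.2%, beside 55.2% of all probes) and positive for 36. This direction depended on the scaling, since with each array centred on its negative control spots the median was 0.04, with 85 genes negative and 129 positive, and 12 genes in place of 112 lay lower without overlap, beside 1.44% of all probes, while 17 lay higher, beside 35.2%. That centring moved the median of all probes to 0.56, and leaving the arrays unscaled moved it to 0.34. The receptor genes lay 0.52 below the median of all probes under both. That distance could not differ from the one in the main scaling, since these scalings shift all probes of an array alike. With no background correction the receptor genes lay 0.05 below the median of all probes and with quantile normalization 0.06 below it. The distance of the receptor genes from other probes thus also depended on the background correction and the normalization.

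Within the slide row that held both treatments, and equally with the row as a block, the median difference was −0.40. It was 0.03 over all probes, and 132 receptor genes were negative. In that row LPS was 1 array. Leaving out arrays cannot lower a count without overlap, here or without saline 2 and 3. At the 2-fold criterion 18 receptor genes were then higher, beside 5.01% of all probes, and 0 lower, beside 0.168%. LPS 1 lay below all 3 saline arrays for 117 receptor genes, beside 31.8% of all probes, and above them for 63, beside 30.1%. With the row as a block 19 were higher, beside 4.90% of all probes, and 0 lower, beside 0.217%. Without saline 2 and 3, the arrays with adrenal transcripts, the median was −0.47. There 7 genes were called lower, beside 1.67% of all probes, 0 were called higher, beside 1.63%, and 137 lay below saline 1, beside 38.2%.

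**Figure D3:**
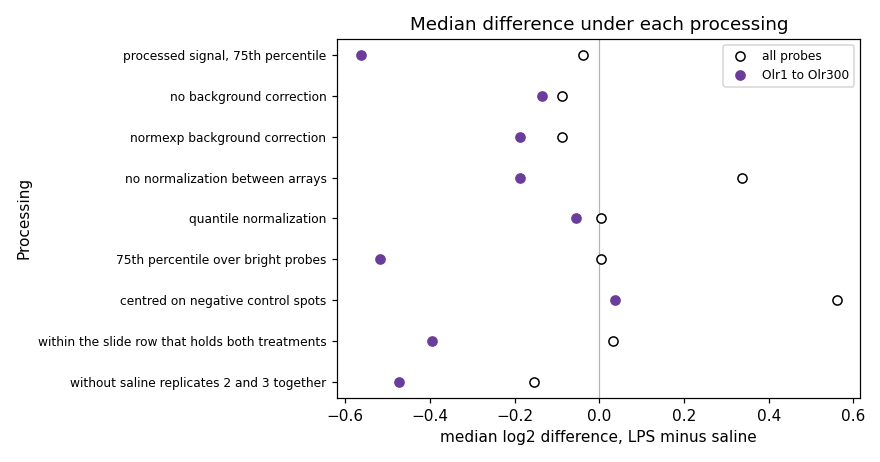
Median log2 difference between LPS and saline (horizontal axis) over the 214 receptor genes (filled) and over all probes (open) under each processing (vertical axis). The receptor genes lie at −0.56 in the main processing and at 0.04 when arrays are centred on negative control spots, and all probes move with the scaling.

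Both genes called at least 2-fold lower were undetected on all arrays. They fell outside the rule for named genes and were chosen after their values were seen. Or52e51 (Olr86) had scaled values of −7.10, −7.18 and −7.63 with LPS and −5.24, −6.48 and −6.82 with saline, and saline 1 was the highest array. Or52e5b (Olr189) had −7.10, −7.15 and −7.61 with LPS and −6.50, −6.41 and −5.79 with saline, and saline 3 was highest. Neither was well above background on any array, so no fold change is given.

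Outside the undetected group, the 18 genes detected on all 6 arrays overlapped between treatments in every case. So did most of the 18093 probes detected on all arrays, of which 1040 lay lower and 1030 higher without overlap. The log2 differences of the 18 genes ranged from −0.18 to 0.09. Their median was −0.04, beside 0.02 for all probes detected on all arrays. Of the 18, 11 were negative and 7 positive, and the lowest adjusted p was 0.826. The median SD between arrays was 0.59 within LPS and 0.38 within saline. For 1 gene, Or52b2, the difference was larger than its own SD within both treatments.

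Most of the 18 genes shared the same order of arrays. The scaled median of the 18 genes was −1.71, −2.77 and −3.02 on LPS 1, 2 and 3 and −2.17, −2.82 and −2.43 on saline 1, 2 and 3. LPS 1 was the highest LPS array for 16 of the 18 genes and saline 1 the highest saline array for 15. LPS 3 was the lowest LPS array for 17 genes and saline 2 the lowest saline array for 16. Over all 6 arrays 12 of the 18 had their highest value on LPS 1 (66.7%), beside 20.6% of the probes detected on all arrays, and 13 had their lowest on LPS 3 (72.2%), beside 21.3%. The order was not particular to these genes. Among olfactory receptor genes numbered over 300 and detected on all arrays the shares were 53.6% and 64.3%. Among vomeronasal receptor genes they were 41.7% and 58.3%. Of the 3 taste and 1 trace amine receptor genes detected on all arrays, 0 were highest on LPS 1. Within the slide row of both treatments 16 of the 18 were higher on LPS 1 than the mean of saline, with a median difference of 0.63. That comparison leaves out LPS 2 and 3. Without LPS 1 all 18 were lower in LPS, with a median of −0.34. Over all probes, which include undetected ones, the median was 0.03 within the row and −0.13 without LPS 1. No value over the probes detected on all arrays stands beside these 2 comparisons, so nothing particular to the 18 genes is read from them.

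**Figure D4:**
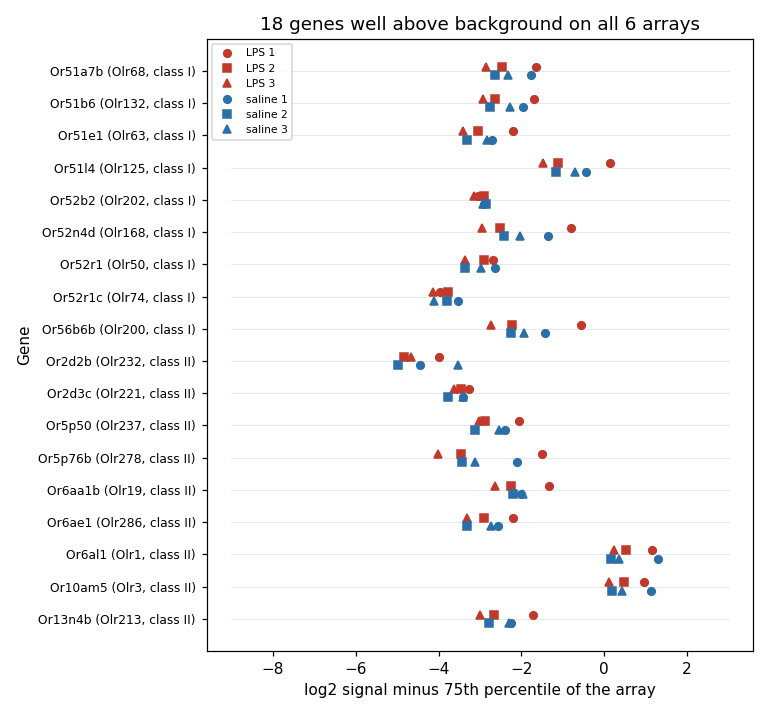
Scaled log2 signal (horizontal axis, log2 signal minus the 75th percentile of the array) of the 18 genes well above background on all 6 arrays (vertical axis), with LPS arrays in red, saline arrays in blue and the replicate number by marker shape. LPS 1 is the highest array for 12 of the 18 genes, and the treatments overlap for all 18.

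Or51e1 (Olr63), a class I receptor known from prostate and other tissues outside the nose, was among the 18. Its scaled values were −2.22, −3.04 and −3.40 with LPS and −2.71, −3.31 and −2.83 with saline. LPS 1 was highest, LPS 3 was lowest and the groups overlapped, with a log2 difference of 0.06 (SE 0.34, adjusted p = 0.989 in limma). Its relative Or51e2, found here under Olr59 and known as a receptor for short-chain fatty acids in kidney and blood vessels, was well above background on no array. The values for Olr59 were −7.12, −7.20 and −7.63 with LPS and −6.23, −6.49 and −6.84 with saline, in the range of the undetected genes.

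In class I, Or51l4 (Olr125) had scaled values of 0.14, −1.12 and −1.49 with LPS and −0.45, −1.16 and −0.70 with saline. LPS 1 lay above and LPS 3 below all saline arrays, and the log2 difference was −0.05 (SE 0.44). The values of Or56b6b (Olr200) were −0.56, −2.22 and −2.73 with LPS and −1.44, −2.26 and −1.95 with saline. Those of Or52n4d (Olr168) were −0.81, −2.51 and −2.95 with LPS and −1.35, −2.43 and −2.02 with saline. Both genes covered more than 2 log2 units between LPS 1 and LPS 3, while their log2 differences between treatments were 0.05 (SE 0.56) and −0.15 (SE 0.58). A further probe of Or56b6b was well above background on 3 arrays and gave −0.23.

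Or51a7b (Olr68) gave −1.64, −2.47 and −2.85 with LPS and −1.77, −2.64 and −2.33 with saline. Or51b6 (Olr132) gave −1.71, −2.64 and −2.93 with LPS and −1.97, −2.76 and −2.29 with saline. In both the replicates numbered 1 were the highest of their treatment, and the log2 differences were −0.07 and −0.09. Or52r1 (Olr50) had −2.68, −2.90 and −3.36 with LPS and −2.64, −3.36 and −2.97 with saline, with the same order among LPS arrays.

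Not all class I genes followed that order. Or52b2 (Olr202) was steady, at −3.06, −2.90 and −3.13 with LPS and −2.90, −2.86 and −2.93 with saline. Its range over the 6 arrays, 0.28, was the smallest of the 18 genes, and its log2 difference was −0.14 (SE 0.16, adjusted p = 0.826 in limma). Or52r1c (Olr74) had −3.97, −3.78 and −4.13 with LPS and −3.53, −3.80 and −4.11 with saline. Here saline 1 was the highest array, and the treatments overlapped.

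In class II, Or6al1 carries Olr1 as an older symbol. It had scaled values of 1.14, 0.53 and 0.24 with LPS and 1.31, 0.17 and 0.35 with saline. Or10am5 (Olr3) had 0.96, 0.46 and 0.11 with LPS and 1.13, 0.19 and 0.42 with saline. These were the only receptor genes with a signal above the 75th percentile of the array on all 6 arrays. Their log2 differences were 0.03 (SE 0.37) and −0.06 (SE 0.33), and saline 1 was the highest array for each.

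The class II gene Or6aa1b (Olr19) had −1.34, −2.25 and −2.64 with LPS and −2.02, −2.21 and −1.95 with saline. Or5p76b (Olr278) had −1.51, −3.45 and −4.02 with LPS and −2.10, −3.43 and −3.11 with saline. The latter had the largest range of the 18 genes, 2.51 log2 units between LPS 1 and LPS 3, and a log2 difference of −0.11 (SE 0.68). Or13n4b (Olr213) had −1.71, −2.67 and −3.01 with LPS and −2.25, −2.78 and −2.31 with saline, with LPS 1 highest and LPS 3 lowest once more.

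For Or5p50 (Olr237) the values were −2.05, −2.87 and −3.04 with LPS and −2.39, −3.11 and −2.54 with saline. For Or6ae1 (Olr286) they were −2.20, −2.91 and −3.32 with LPS and −2.56, −3.31 and −2.74 with saline. LPS 1 was the highest array in both. Or2d3c (Olr221) had −3.27, −3.45 and −3.62 with LPS and −3.40, −3.78 and −3.42 with saline, with a narrower range of 0.51. Or2d2b (Olr232) had −4.00, −4.83 and −4.67 with LPS and −4.45, −4.99 and −3.53 with saline, and was highest on saline 3.

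Another 8 genes passed the flag on all 3 LPS arrays and on 1 or 2 saline arrays, and the treatments overlapped for all 8. Of these, Or56a5 (Olr192), Or10a2 (Olr230), Or52e2 (Olr80), Or56a3b (Olr190) and Or5p1 (Olr260) were detected on 2 saline arrays, and Or52ab2b (Olr89), Or10a3 (Olr282) and Or6z5 (Olr7) on 1. No gene was detected on all saline arrays without being detected on all LPS arrays. Over all probes, too, each LPS array had more detected than any saline array. These counts have no share of all probes beside them, so no excess is read from them.

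Among these 8, the class II gene Or6z5 had −4.09, −4.88 and −4.91 with LPS and −5.37, −5.77 and −4.18 with saline, with a log2 difference of 0.48 (SE 0.45, adjusted p = 0.762 in limma). Saline 3 lay within the LPS values. Or10a3 had −4.15, −4.45 and −5.01 with LPS and −4.39, −4.79 and −5.58 with saline, a log2 difference of 0.38 (SE 0.37). Or10a2 had −2.94, −4.56 and −4.97 with LPS and −3.75, −5.31 and −4.10 with saline, a log2 difference of 0.23 (SE 0.62). In Or10a2 the replicates numbered 1 and saline 3 were highest. Or5p1 had −4.00, −4.85 and −4.82 with LPS and −3.73, −4.83 and −4.10 with saline, and both replicates numbered 1 were again the highest of their treatment.

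In class I, Or56a5 had −2.43, −3.65 and −4.06 with LPS and −2.92, −4.33 and −3.46 with saline, with LPS 1 highest and saline 2 lowest. Or52e2 had −3.41, −4.22 and −4.87 with LPS and −3.77, −5.13 and −4.24 with saline, with the same arrays at its ends. The log2 differences were 0.19 (SE 0.52) and 0.21 (SE 0.47). Or56a3b, the neighbour of Or56a5 in the gene order, had −4.76, −4.18 and −4.24 with LPS and −3.51, −4.25 and −4.88 with saline, and here saline 1 was highest and saline 3 lowest. Or52ab2b had −4.47, −4.52 and −5.01 with LPS and −3.38, −4.75 and −4.86 with saline, highest on saline 1, with a log2 difference of −0.34 (SE 0.42).

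Among the 26 genes detected on LPS arrays and on no saline array, no fold change is given, since saline was undetected on all its arrays. From these, 5 genes chosen after their values were seen are described, namely Or52p1 (Olr157), Or52ab2 (Olr88), Or52e18 (Olr178), Or55b10 (Olr40) and Or2ag16b (Olr206). Or52p1 had −4.06, −4.32 and −5.50 with LPS and −5.48, −5.32 and −5.13 with saline (adjusted p = 0.463 in limma). It was detected on LPS 1 and 2, and LPS 3 lay below the saline arrays. Or52ab2, detected on LPS 2 and 3, was the single receptor gene whose LPS values all lay above saline. It had −4.87, −4.59 and −4.81 with LPS and −5.13, −5.73 and −5.49 with saline (adjusted p = 0.271 in limma).

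The other 3 of these genes were detected on LPS 1 alone. Or52e18 had −4.10, −4.97 and −5.64 with LPS and −4.81, −5.57 and −6.17 with saline, and LPS 1 lay above all saline arrays. Or55b10 had −4.46, −5.47 and −5.90 with LPS and −5.78, −5.69 and −5.22 with saline and Or2ag16b had −4.00, −5.27 and −5.99 with LPS and −5.50, −6.15 and −4.68 with saline, with LPS 1 highest in both. All 3 overlapped between treatments, and a further probe of Or2ag16b was well above background on no array.

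The 2 genes detected on saline alone (0.935%, beside 0.794% of all probes), also chosen after their values were seen, rested on saline 2, an array with adrenal transcripts. Or2ag20 (Olr215) had −5.51, −5.35 and −6.15 with LPS and −5.40, −2.11 and −6.34 with saline. Or51k7 (Olr136) had −7.03, −6.94 and −7.44 with LPS and −6.74, −4.39 and −6.65 with saline. On the other saline arrays neither gene was well above background. For Or2ag20 saline 1 lay inside and saline 3 below the LPS values (adjusted p = 0.772 in limma), and for Or51k7 all saline values lay above LPS (adjusted p = 0.408 in limma). Neither probe was detected without saline 2, and no fold change is given. A further probe of Or2ag20 was detected on LPS 1 alone.

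Or12j3 (Olr297), a class II receptor chosen after its values were seen, differed between replicate numbers more than between treatments. It had −1.83, −6.98 and −7.47 with LPS and −3.74, −6.33 and −6.67 with saline. It was well above background on LPS 1 and saline 1, while the other 4 values lay in the range of the undetected genes. Its log2 difference between treatments, 0.15 (SE 1.58, adjusted p = 0.995 in limma), averages over those 4 values and gives no exact fold. Which animals or litters stand behind these arrays was not analysed here.

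The receptor genes lie next to each other in the RefSeq gene order of the rat, all on the same chromosome. The 27 named genes had 52 different neighbours with a probe, of which 47 were olfactory receptor genes too. Of the 52 neighbours, 41 were well above background on no array and 2 on all arrays. Those were Myadm, a myeloid-associated membrane gene, and Or6al2, which lie to either side of Or6al1. Myadm had 4.12, 3.93 and 3.63 with LPS and 3.55, 3.85 and 3.47 with saline. Or6al2 had −2.27, −2.79 and −2.96 with LPS and −2.27, −2.61 and −2.68 with saline, and the treatments overlapped in both. The neighbours of Or10am5, Zim1 and Or6z1, were both undetected. Among the 18 genes detected on all arrays a single pair, in the order of the 214 genes, stood side by side.

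Genes of olfactory signalling, receptor export, the olfactory neuron, and odorant binding and metabolism were read beside the receptors. Of 23 such genes with a probe, 10 passed the detection flag on every array and 10 on none. Those detected on all arrays were the export chaperones Rtp2 and Reep1, the G protein subunits Gnal, Gnb1 and Gng13, the cyclase Adcy3, the channel subunit Cngb1, the phosphodiesterase Pde4a, the arrestin Arrb2 and the transcription factor Emx2. Apart from Omp, Cnga2, Cnga4 and Rtp1, the undetected genes were Pde1c, Grk3, the odorant-binding proteins Obp1f and Obp2b, and the enzymes Cyp2g1 and Ugt2a1 of the nasal epithelium.

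None of the 23 genes passed at 2-fold with an unadjusted p under 0.05 or at an adjusted p under 0.05, and their median log2 difference was −0.05. The 5 with an unadjusted p under 0.05, Cnga2, Pde1c, Grk3, Obp2b and Cyp2g1, were all undetected, and their share of 21.7% stands beside 16.5% of all probes. Gnal, the receptor-coupled G protein subunit, had 0.43, 0.18 and −0.29 with LPS and 0.57, 0.58 and 0.33 with saline. Its log2 difference was −0.39 (SE 0.23, adjusted p = 0.50 in limma) with LPS 1 inside the saline range. Adcy3 had −3.67, −2.55 and −2.32 with LPS and −3.50, −3.53 and −3.02 with saline, a log2 difference of 0.50 (SE 0.38, adjusted p = 0.650 in limma). Here LPS 1 was below all saline arrays and LPS 2 and 3 above them. Gnb1, a subunit of many G proteins, had 2.34, 2.36 and 2.42 with LPS and 2.33, 2.13 and 2.14 with saline, without overlap but with adjusted p = 0.744 in limma.

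The channel subunit Cngb1 had −2.05, −2.67 and −2.98 with LPS and −2.22, −2.82 and −2.49 with saline, highest on LPS 1 and lowest on LPS 3 like most of the detected receptor genes. The log2 difference was −0.05 (SE 0.29). Rtp2 had −3.87, −3.57 and −3.88 with LPS and −3.29, −3.79 and −3.73 with saline, and Reep1 had −2.43, −1.82 and −1.44 with LPS and −2.11, −1.23 and −2.04 with saline. Neither followed that order. The other detected genes, Gng13, Pde4a, Arrb2 and Emx2, had log2 differences of 0.09, −0.03, 0.28 and 0.41, with adjusted p-values of 0.979, 0.994, 0.528 and 0.738 in limma.

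Other chemosensory receptor families were read in the same way. Of 926 olfactory receptor genes with numbers over 300, 177 (19.1%) were detected on at least 1 array and 56 (6.05%) on all, compared with 60 (28.0%) and 18 (8.41%) here. Their counts per array were 161, 112 and 110 for LPS and 112, 58 and 93 for saline, again highest on LPS 1. Their median log2 difference was −0.57, and 534 (57.7%, beside 18.4% of all probes) lay lower in LPS without overlap, of which 530 were detected on no array. Of 113 vomeronasal receptor genes 25 were detected on at least 1 array, of 33 taste receptor genes 8, and of 15 trace amine receptor genes 2, with median log2 differences of −0.58, −0.54 and −0.61. These medians had the sign of that of the 214 genes in the main scaling, and most genes of each family were undetected. Other scalings of these families and differences between the families were not tested.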

How the data were processed

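The authors deposited the spot intensity values of each array as extracted with Agilent Feature Extraction 10.5.1.1, and a table of processed intensity values that matched the same spots within 0.497%. Spots flagged as non-uniform or population outliers were removed, spots of a probe were averaged on the log2 scale, and each array's 75th percentile over probes was subtracted. A probe counted as well above background when at least as many of its spots had the flag as lacked it. limma 3.58.1 in R 4.3.3 (lmFit, eBayes) compared treatments over 30367 probes with at least 2 arrays per treatment. Exact permutation tests over arrays used SciPy 1.17.1.

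All columns of the table were used (0 not used). The scanner files gave no gene names. RefSeq accessions, without versions, were matched to the RefSeq table of GRCr8, used for names and neighbours alone, which named 17998 probes (15154 symbols) and left 3408 RefSeq accession probes unmatched. The literal symbols found few genes, so older symbols were accepted after the files had been seen. The members, the gene lists and the rules were chosen with earlier results of these data known. Named genes are members detected on all arrays of a treatment, members at least 2-fold different and detected in both, Or51e1 and Or51e2, neighbours of these, and signalling genes detected on all arrays. No fold change is given for a gene undetected on all arrays of a treatment. Probe sequences were not used here, so cross-hybridization between similar receptors was not tested. Array signal and the number of arrays, not read depth, limit the precision.

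Alternatives covered background correction, normalization, the deposited table, flagged spots, dim probes, analysis of variance (the design the methods name), a limma trend, slide row, replicate number, probe choice and left-out arrays. LPS and saline arrays that share a replicate number deviated together, with correlations of 0.298 (number 1), 0.215 (number 2) and 0.254 (number 3) over probes, and nothing but these correlations supports a pairing.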

Additional observations from a re-analysis of the deposited data

How the results depend on the processing

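No receptor gene passed the adjusted threshold under any setting. Main values are 0 higher and 2 lower calls, 1 higher and 112 lower without overlap, a median of −0.56, 60 genes detected on at least 1 array and an unscaled level difference of −0.27. Higher calls, lower calls, higher without overlap, lower without overlap and median are given in that order, with the shares of all probes for the 4 counts in brackets. They were 0, 0, 0, 2 and −0.14 with no background correction (0%, 0.695%, 2.07%, 5.51%) and 0, 0, 0, 26 and −0.19 with normexp (0.00659%, 0.922%, 2.50%, 9.77%). They were 2, 0, 18, 5 and −0.19 without normalization (3.30%, 0.748%, 12.6%, 1.16%), 0, 0, 4, 27 and −0.056 with quantile normalization (0.389%, 0.570%, 4.95%, 5.95%) and 3, 0, 17, 12 and 0.036 centred on negative controls (6.20%, 0.109%, 35.2%, 1.44%). They were 0, 0, 0, 0 and −0.018 over the 26 genes kept without dim probes (0.607%, 0.920%, 6.65%, 5.25%) and 18, 0, 63, 117 and −0.40 within the slide row (5.01%, 0.168%, 30.1%, 31.8%). With the row as a block, calls were 19 higher and 0 lower (4.90%, 0.217%). Analysis of variance gave 1 lower (0.158%). Without saline 2 and 3 there were 7 lower calls (1.67%) and 2 higher without overlap (17.3%). Chosen after seeing the data, a common floor gave 0 lower calls (0.217%), 0 lower without overlap (3.72%) and a median of 0, and leaving out both replicates numbered 1 gave 6 lower calls (3.44%), 2 higher (23.3%) and 155 lower (37.5%) without overlap and a median of −0.75. The replicate block gave the main counts of 0 higher and 2 lower calls (0.807%, 1.26%) and the main median of −0.56. With both treatments in each replicate number, the block cannot change that median or the LPS excess of 13 detected genes per array. The positive-and-significant flag detected 113 genes, and the unsubtracted signal turned the level difference to 0.20. Leaving out each array in turn gave 0 to 1 higher calls (0.425% to 1.23%) and 0 to 5 lower calls (0.267% to 2.49%). Without overlap, 1 to 6 lay higher (6.82% to 14.6%) and 112 to 154 lower (19.3% to 29.9%). The medians were −0.71 to −0.39, with 38 to 60 detected genes. Leaving out arrays cannot lower a count without overlap or raise the number of detected genes. This also holds within the slide row, without saline 2 and 3 and without both replicates numbered 1. Where leaving out arrays or another setting left few arrays, these were assumed to vary like the rest. Of the 27 named receptor genes, 1 (Olr59) kept its sign in all 23 settings it was fitted in and 26 turned sign in some setting. The cause was not tested. The value table, flagged spots kept, the 75th percentile of well-above probes, the limma trend and the mean of all probes kept the direction of the median and the counts within 1.5 times, though not the sign of every named gene. Signal over background limits the 154 undetected genes.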
